A study of Mus musculus with 8 samples.

Results

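The antioxidant genes of peripheral blood were followed in mice after acute restraint stress. Their 10 members were the symbols Gpx1, Cat, Prdx2, Prdx5, Sod1, Sod2, Txn1, Gsr, Nfe2l2 and Nqo1, taken by name from the 21878 gene symbols of the count table. All 10 had enough reads to be tested, among 11718 genes tested in all. RNA was sequenced from whole peripheral blood of female wild-type C57BL/6 mice aged 6 to 8 weeks, in 4 control and 4 stress samples. The stress group was held for 6 h in a ventilated tube without food or water. The control group stayed in the cage for that time, also without food or water, so that fasting was common to both groups. The comparison addresses how acute stress changes gene expression in blood. Each sample was labelled as a numbered replicate, and p-values measure only the spread between these 8 samples.

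Superoxide and hydrogen peroxide arise in every cell that uses oxygen, and in red cells also from the oxidation of haemoglobin. Superoxide dismutases turn superoxide into hydrogen peroxide, which catalase, glutathione peroxidases and peroxiredoxins remove, while thioredoxin and glutathione reductase keep the thiols of that chain reduced. The transcription factor NRF2, encoded by Nfe2l2, drives many of these genes through antioxidant response elements. Circulating red cells of the mouse include young reticulocytes that still hold RNA, and whole blood RNA therefore carries the transcripts of red cells beside those of leukocytes and platelets.

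Promoter sequence was read for the 9 members with a RefSeq entry on GRCm38.p6, over 250 bases before and 50 after the transcription start. Gsr had no entry. The antioxidant response element, the site read by NRF2, was searched as TGACNNNGC on both strands and lay in 2 of 9 promoters, those of Nfe2l2 and Sod1, against 12.4% of all 32851 promoters. The sequence AGATAA, a binding site of erythroid GATA factors, lay in 0 of 9, against 11.2% of all promoters. The CACCC element CCNCACCC, read by erythroid and other Krüppel-like factors, lay in 3 of 9 (Cat, Gpx1 and Prdx2), against 16.6% of all promoters. These letters were narrowed from a broader pattern after its matches had been seen. In Gpx1 the match began 41 bases after the start, so its promoter is not shown. Stretches of 100 bases upstream of the start of the other 4 genes are shown in their own orientation, because they hold the elements searched. They do not all adjoin the start, as the match of Nfe2l2 begins 240 bases before it. Cat has a further match, 162 bases before its start, that lies outside the stretch shown. Capitals mark the matches, which are descriptions of the letters and not shown to be bound in blood. They come from chr8:84969487-84969586 on the plus strand for Prdx2, chr2:103485167-103485266 on the minus strand for Cat, chr2:75704814-75704913 on the minus strand for Nfe2l2 and chr16:90220625-90220724 on the plus strand for Sod1.
Prdx2: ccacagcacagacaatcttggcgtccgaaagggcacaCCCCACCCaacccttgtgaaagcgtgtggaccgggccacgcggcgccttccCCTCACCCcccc
Cat: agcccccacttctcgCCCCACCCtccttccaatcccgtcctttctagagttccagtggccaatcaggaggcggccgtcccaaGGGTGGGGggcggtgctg
Nfe2l2: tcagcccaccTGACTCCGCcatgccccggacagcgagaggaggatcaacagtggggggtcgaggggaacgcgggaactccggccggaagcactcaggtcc
Sod1: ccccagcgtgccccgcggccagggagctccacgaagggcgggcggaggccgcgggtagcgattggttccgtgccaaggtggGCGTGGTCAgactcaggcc

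The scale on which libraries were compared decided the direction of several members. Libraries held 31471145 to 39014775 counts among controls and 25978683 to 29655725 after stress. Haemoglobin genes took 51.9% to 63.8% of control counts and 61.2% to 75.5% of stress counts, with the lowest share in control 3 and the highest in stress 3 (two-sided exact permutation test over 70 assignments, p = 0.0571). Unless another scale is named, levels are CPM, counts relative to library size, after TMM normalization. TMM sets the typical gene to no change, so that over all tested genes the median log2 fold change came to −0.02. With libraries scaled by their total counts alone that median was −0.82, and with all counts outside haemoglobin it was −0.43. Fewer cells of a type and less RNA per cell cannot be told apart in bulk blood.

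On the TMM scale all 10 members had a higher mean in the stress group, and 6 of the 10 rose at an adjusted p below 0.05 (edgeR quasi-likelihood test, adjusted over all tested genes). These were Gsr, Prdx5, Cat, Sod1, Txn1 and Nfe2l2. Over all tested genes 10.4% were higher and 3.69% lower by the same rule. None of the members was lower, with edgeR, DESeq2 or limma-voom, and none had a log2 fold change below 0 in any of these fits. The study used stricter thresholds, with |log2 fold change| > 1 together with an adjusted p under 0.01, and of the 10 only Gsr passed these, against 1.69% of all tested genes higher and 0.0171% lower. The median log2 fold change was 0.75 over the members. The count of 6 fell to 2 without control 2 and to 3 without control 3, and was 5 without stress 3. Over all tested genes the count higher went from 1223 to 618, 692 and 1141 in the same fits. With total counts as the scale 0 of the 10 were called in either direction, and 0 had an unadjusted p below 0.05. On that scale 0.444% of all tested genes were called higher and 49.6% lower, and the median over the members was −0.04, above the −0.82 of all genes.

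**Figure D1:**
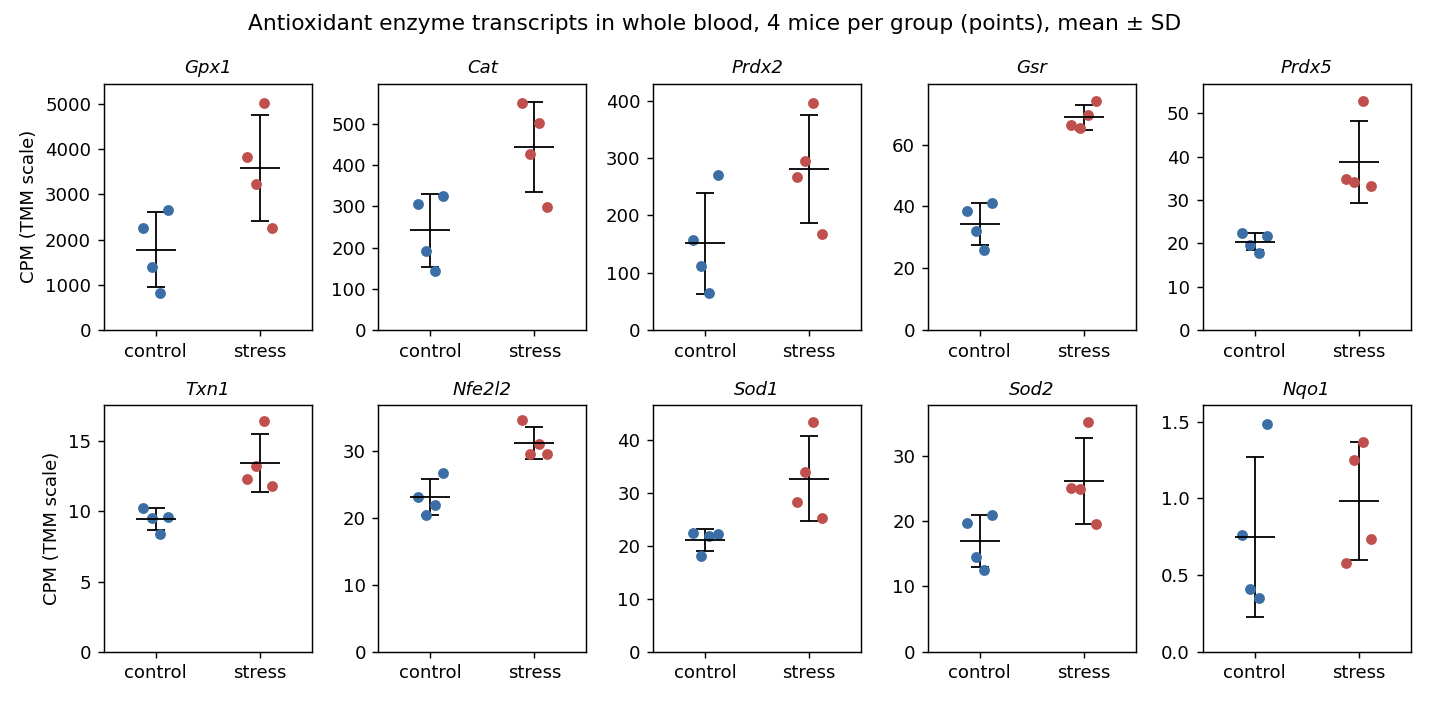
Levels of the 10 transcripts in each sample, as CPM on the TMM scale (vertical axes, from 0, 1 scale per gene), for the 4 control and 4 stress samples, with mean ± SD. Both groups were separate for Gsr, Prdx5, Sod1, Txn1 and Nfe2l2 and overlapped for Gpx1, Cat, Prdx2, Sod2 and Nqo1, and with total counts as the scale no member was separate.

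Among the genes that remove hydrogen peroxide, Prdx5 and Cat rose, while Gpx1 and Prdx2 had higher means with overlapping groups. Gpx1 (chr9:108338903-108340343 on GRCm38, as for the other members) encodes the selenoenzyme that reduces peroxide with glutathione, and was the most abundant member. Gpx1 stood at 2252, 1385, 812 and 2660 CPM in control samples 1 to 4 and at 3830, 3221, 5033 and 2248 CPM in stress samples 1 to 4. The lowest stress sample, number 4, lay below 2 control samples, 1 and 4. The mean went from 1777 ± 835 to 3583 ± 1166 CPM (SD, n = 4 each), a log2 fold change of 1.01 ± 0.37 (SE, 95% interval 0.21 to 1.81) that did not pass the threshold (edgeR, adjusted p = 0.0835). On the TMM scale it passed when control 4 was left out (adjusted p = 0.0491) and with no other sample left out.

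Cat (chr2:103453849-103485160) encodes catalase, which splits hydrogen peroxide without a cosubstrate. Its level was 306, 191, 143 and 325 CPM in the control samples and 550, 428, 503 and 299 CPM in the stress samples. As for Gpx1, only stress 4 lay within the control range, below control 1 and control 4. Cat rose 1.84-fold, a log2 fold change of 0.88 ± 0.26 (SE, edgeR, adjusted p = 0.0425), but the call was lost when control 2 (adjusted p = 0.130), control 3 (0.0991), stress 1 (0.105), stress 2 (0.0801) or stress 3 (0.131) was left out.

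Prdx2 (chr8:84969587-84974834) encodes a thioredoxin-dependent peroxidase known for its abundance in red cells. It had 157, 111, 64.2 and 271 CPM in the control samples and 266, 294, 396 and 167 CPM in the stress samples. The highest control sample, number 4, lay above 2 stress samples, 1 and 4. The log2 fold change was 0.90 ± 0.38 (SE, 95% interval 0.08 to 1.72, edgeR, adjusted p = 0.129), and it passed only without control 4 (adjusted p = 0.0179). At its ends Prdx2 shares 5.67% of its exon bases with Junb and 5.80% with Rnaseh2a, both on the opposite strand, and a Prdx2 pseudogene, Tdpx-ps1, matched it at 96.3% identity.

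Prdx5 (chr19:6906697-6910106) encodes a peroxiredoxin found in mitochondria, peroxisomes and the cytosol. It lay at 22.3, 19.7, 17.8 and 21.8 CPM in the control samples and at 34.9, 34.1, 52.9 and 33.3 CPM in the stress samples. Every stress sample exceeded every control sample, and stress 3 stood apart from the other stress samples. Prdx5 rose 1.90-fold, a log2 fold change of 0.92 ± 0.15 (SE, 95% interval 0.60 to 1.25, edgeR, adjusted p = 0.00205), and passed in 8 of 8 fits that left out a sample. Trmt112, on the opposite strand, covers 19.1% of the exon bases of Prdx5. Its own log2 fold change was 0.09 (edgeR, adjusted p = 0.721).

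Of the dismutases, the cytosolic copper-zinc enzyme Sod1 rose and the mitochondrial manganese enzyme Sod2 missed the threshold narrowly. Sod1 (chr16:90220754-90226329) was measured at 22.3, 18.1, 21.8 and 22.3 CPM in the control samples and at 28.2, 33.8, 43.4 and 25.2 CPM in the stress samples. The groups did not overlap, and the spread was wider in the stress group. Sod1 rose 1.54-fold, a log2 fold change of 0.62 ± 0.15 (SE, edgeR, adjusted p = 0.0173), and the call was lost without control 2 (adjusted p = 0.0712). A pseudogene, Gm8566, matched its transcript at 97.8% identity.

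Sod2 (chr17:13006846-13040063) was found at 19.7, 14.5, 12.5 and 20.9 CPM in the control samples and at 25.1, 24.9, 35.1 and 19.5 CPM in the stress samples. Stress 4 again lay inside the control range. The log2 fold change was 0.63 ± 0.20 (SE, 95% interval 0.20 to 1.05, edgeR, adjusted p = 0.0520), almost the value of Sod1. It passed with DESeq2 (adjusted p = 0.0259), with limma-voom (0.0451) and without control 4 (0.0278) or stress 4 (0.0222). A stretch of 3110 bases of Sod2 matched Rps6ka2 at 98.3% identity. Within libraries there were on average 0.799 ± 0.159 Sod2 counts per Sod1 count for controls and 0.802 ± 0.0658 after stress (SD, two-sided exact permutation test, p = 0.914).

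Thiol recycling held the member with the smallest adjusted p. Gsr (chr8:33652523-33698163) encodes glutathione reductase, which restores glutathione with NADPH. Its level was 38.6, 31.9, 25.9 and 41.0 CPM in the control samples and 66.5, 65.2, 69.7 and 74.3 CPM in the stress samples. All stress samples lay well above the highest control sample, and they varied less than the controls. Gsr rose 2.01-fold, from 34.3 ± 6.82 to 68.9 ± 4.03 CPM (SD, n = 4 each), a log2 fold change of 1.01 ± 0.14 (SE, 95% interval 0.71 to 1.30, edgeR, adjusted p = 0.00105). It passed at 0.05 in 8 of 8 fits that left out a sample. Because its fold change lay at the edge of the study's threshold of 1, it failed that rule without control 2, control 3 or stress 4.

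Txn1 (chr4:57943373-57956411) encodes cytosolic thioredoxin, the electron donor of the peroxiredoxins. It was present at 10.2, 9.52, 8.35 and 9.58 CPM in the control samples and 12.3, 13.2, 16.5 and 11.8 CPM in the stress samples, with no overlap. Txn1 rose 1.42-fold, a log2 fold change of 0.51 ± 0.13 (SE, edgeR, adjusted p = 0.0194), and the call was lost without control 2 (adjusted p = 0.0614) or control 3 (0.0741). Within libraries there were 3.62 ± 0.514 Gsr counts per Txn1 count for controls and 5.21 ± 0.864 after stress (SD). That difference of 0.52 on the log2 scale did not pass (two-sided exact permutation p of 0.0571, or 0.286 when adjusted over 5 pairs), and the groups overlapped only through control 4 and stress 3.

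The regulator Nfe2l2 rose slightly and its classical target Nqo1 was too low to measure well. Nfe2l2 (chr2:75675513-75704641) lay at 23.2, 20.4, 21.9 and 26.8 CPM in the control samples and at 34.7, 29.5, 31.0 and 29.5 CPM in the stress samples. The groups were separate by a small margin between control 4 and stress 2 or 4. It rose 1.35-fold, the smallest rise among the 6 members that passed, with a log2 fold change of 0.44 ± 0.11 (SE, edgeR, adjusted p = 0.0200). The call was lost without control 1 (adjusted p = 0.0520), control 2 (0.0883) or control 3 (0.0731).

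Nqo1 (chr8:107388225-107403206) encodes a quinone reductase. It gave 28, 21, 24 and 47 counts in the control samples and 13, 27, 18 and 23 counts in the stress samples. These were 0.761, 0.406, 0.347 and 1.48 CPM against 0.580, 1.25, 1.37 and 0.736 CPM, fully interleaved. The log2 fold change was 0.41 with a 95% interval from −0.65 to 1.47 (edgeR, adjusted p = 0.608), so that a difference in either direction was not detectable at this depth.

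The rises depended on the scale between libraries. Every stress sample exceeded every control sample for 5 of the 10 members on the TMM scale, against 11.1% of all tested genes above and 9.87% below. With total counts as the scale this held for 0 of 10 in either direction, against 0.247% of all tested genes above and 23.5% below. Gsr on total counts was 45.1, 47.0, 45.9 and 41.2 CPM in the control samples and 53.3, 47.4, 35.3 and 81.7 CPM in the stress samples. Stress 3 then held the lowest value and stress 4 the highest, where TMM placed all of the stress samples close together.

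On total counts the log2 fold changes of Gsr (0.28), Gpx1 (0.25), Prdx2 (0.14), Cat (0.13) and Prdx5 (0.10) stayed above 0, and those of Sod2 (−0.18), Sod1 (−0.23), Txn1 (−0.31), Nqo1 (−0.31) and Nfe2l2 (−0.34) lay below. With libraries scaled to the summed counts of 29 erythroid marker symbols, only Gpx1 (0.16), Gsr (0.13) and Prdx2 (0.08) stayed above 0. The most abundant of these symbols, Alas2 and Bpgm, weigh most in that sum, with control means of 16108 and 5705 CPM on the TMM scale. On the erythroid scale again 0 of 10 passed in either direction, with 0 at an unadjusted p below 0.05, where 0.128% of all tested genes were called higher and 39.7% lower. Against all counts outside the haemoglobin genes 4 of 10 passed, Gsr, Gpx1, Prdx5 and Cat, all higher, where 4.7% of all tested genes were called higher and 33.7% lower. Thus Gpx1, Gsr and Prdx2 kept their sign on all 4 scales. On erythroid marker counts the median was −0.20 over the members and −1.03 over all tested genes.

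**Figure D2:**
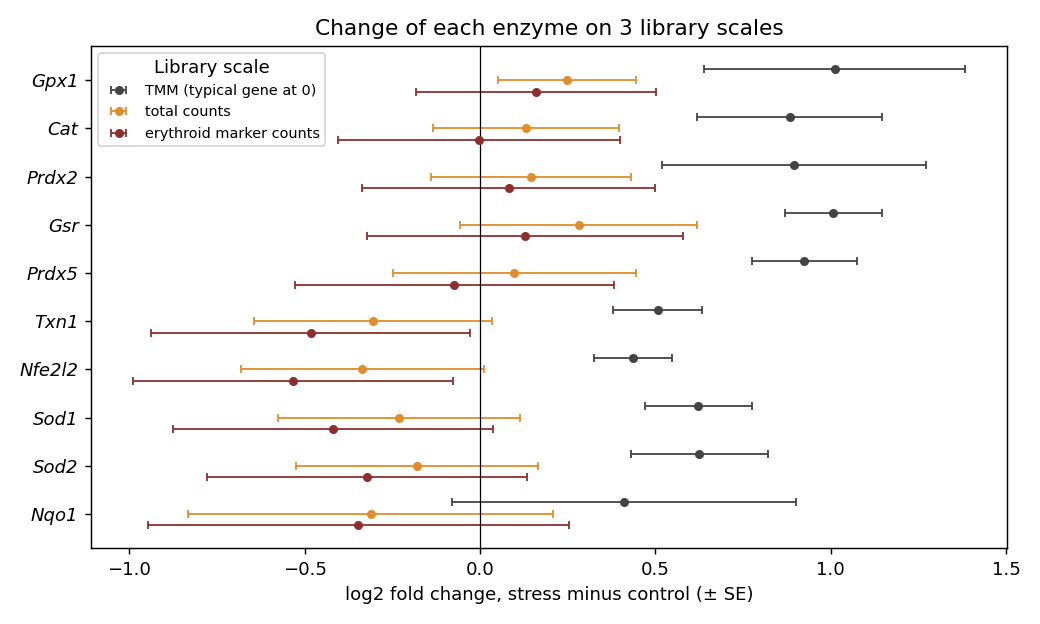
Log2 fold change of each member, stress minus control (horizontal axis, ± SE), on the TMM scale, with total counts and with erythroid marker counts as the library scale. On the TMM scale all 10 lie above 0, on total counts 5 of 10 and on erythroid marker counts 3 of 10.

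The share of the library taken by the members had overlapping groups. The 10 members together took 0.334%, 0.265%, 0.200% and 0.342% of all counts in the control samples and 0.389%, 0.301%, 0.314% and 0.320% in the stress samples. Their mean was 0.285% ± 0.0664 against 0.331% ± 0.0392 (SD, n = 4 each, two-sided exact permutation test, p = 0.314). Gpx1 made up 76.5% ± 3.14 of these counts in controls and 78.9% ± 1.85 after stress. Of the counts outside haemoglobin, the members took 0.709% ± 0.239 and 1.07% ± 0.196, with 3 of 4 stress samples above every control sample (exact permutation test, p = 0.0857).

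Ratios within a library do not depend on any scale between libraries. Relative to summed haemoglobin counts, none of the 10 members separated the groups, and the two-sided exact permutation p ran from 0.0571 for Sod2, at −0.41 on the log2 scale, to 0.971 for Gsr. Relative to the erythroid markers, the log2 ratio of Gpx1 was −3.98, −4.04, −4.26 and −4.04 in the control samples and −3.95, −3.95, −3.82 and −3.94 in the stress samples. The groups were separate by a narrow gap, with a difference of 0.16 and the smallest p that 4 against 4 samples can give (exact permutation test, p = 0.0286), in 1 of 20 such ratios and with no adjustment. Among pairs of members, the ratio of Prdx5 to Prdx2 was 0.169 ± 0.0825 for controls and 0.145 ± 0.0372 after stress, that of Gpx1 to Cat was 7.11 ± 1.05 and 8.00 ± 1.37, and that of Nqo1 to Nfe2l2 was 0.0310 ± 0.0178 and 0.0320 ± 0.0134 (SD, n = 4 each). All 3 differences lay within the spread between samples (exact permutation test, adjusted p = 0.914 for each).

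Levels of different members were compared as CPM per kb of exon in the GENCODE M21 annotation. In the control group Gpx1 led at 1233, followed by Cat at 92.4, Prdx2 at 49.5, Gsr at 12.5, Prdx5 at 9.53, Txn1 at 8.97, Nfe2l2 at 6.08, Sod1 at 5.32, Sod2 at 1.69 and Nqo1 at 0.482 CPM per kb. Of the 4 genes that act on hydrogen peroxide, 3 thus led the order, above both dismutases and both thiol genes. The order in the stress group was the same except that Sod1 (8.23) and Nfe2l2 (8.22) were level, and the stress mean of Gpx1 was 2487 CPM per kb. Ranges of neighbours overlapped for Cat and Prdx2 (54.8 to 125 against 21.1 to 88.9 in the control group), for Gsr and Prdx5, for Prdx5 and Txn1, and for Nfe2l2 and Sod1. Ranges were separate in both groups for Gpx1 and Cat, Prdx2 and Gsr, Txn1 and Nfe2l2, Sod1 and Sod2, and Sod2 and Nqo1. Sod2 was divided by all 10008 bases of its annotated exons, and which of its transcripts blood uses was not tested.

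**Figure D3:**
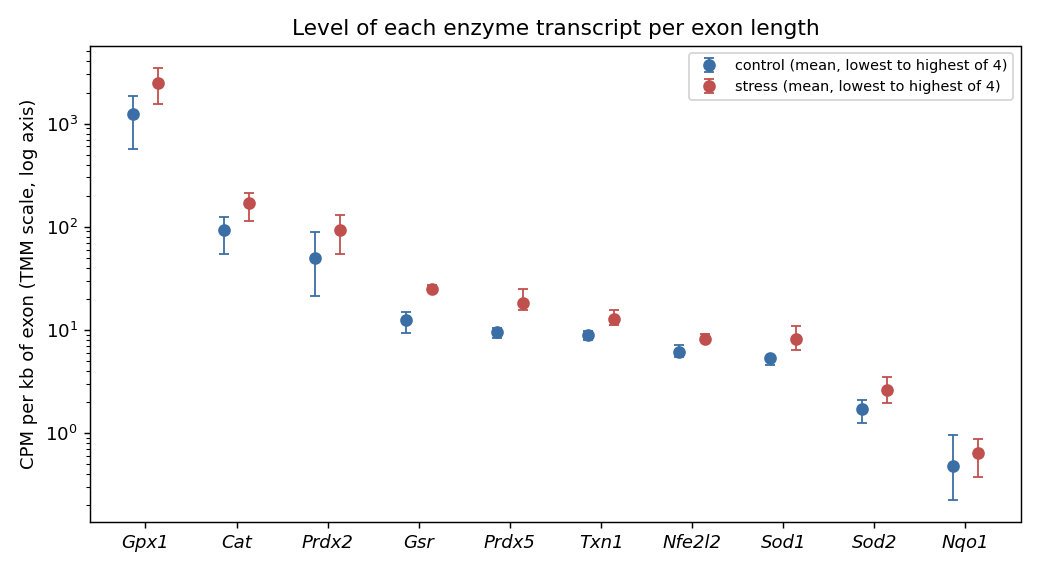
Mean level of each member in CPM per kb of annotated exon on the TMM scale (vertical log axis), in the control and the stress group, with bars from the lowest to the highest of 4 samples. Gpx1 lay above 1000 in both group means and Nqo1 below 1.

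Across the 8 samples the members lay nearest to different marker lists of blood cells. Likeness was taken as the root mean square (RMS) difference of centred log2 CPM, where 0 is an identical profile. The samples share their library scale with every gene, so these values are descriptions. Gpx1, Cat and Prdx2 lay closest to the erythroid and haemoglobin genes, with median differences of 0.239 to the erythroid list for Gpx1, 0.255 for Cat and 0.275 to the haemoglobin list for Prdx2. Gsr lay closest to the platelet list at 0.166, ahead of the neutrophil list at 0.345. Prdx5 (0.216), Txn1 (0.310) and Sod1 (0.316) were also closest to the platelet list. Sod2 was closest to the haemoglobin list (0.288), with the platelet list almost as near (0.294). Nfe2l2 was closest to the T cell list (0.333), with the platelet list almost as near (0.342). Medians hide mixed lists: the single nearest marker was the erythroid gene Gypc for Nfe2l2 (0.143), Txn1 (0.124) and Sod1 (0.235). Their medians to the whole erythroid list were 0.552, 0.557 and 0.562. Nqo1 was far from all lists, with 0.467 to the nearest. A flat profile would differ from a member by about the member's own SD over the samples. That SD was 0.267 for Nfe2l2 and 0.313 for Txn1, so neither was clearly nearer to a list than to a flat profile.

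**Figure D4:**
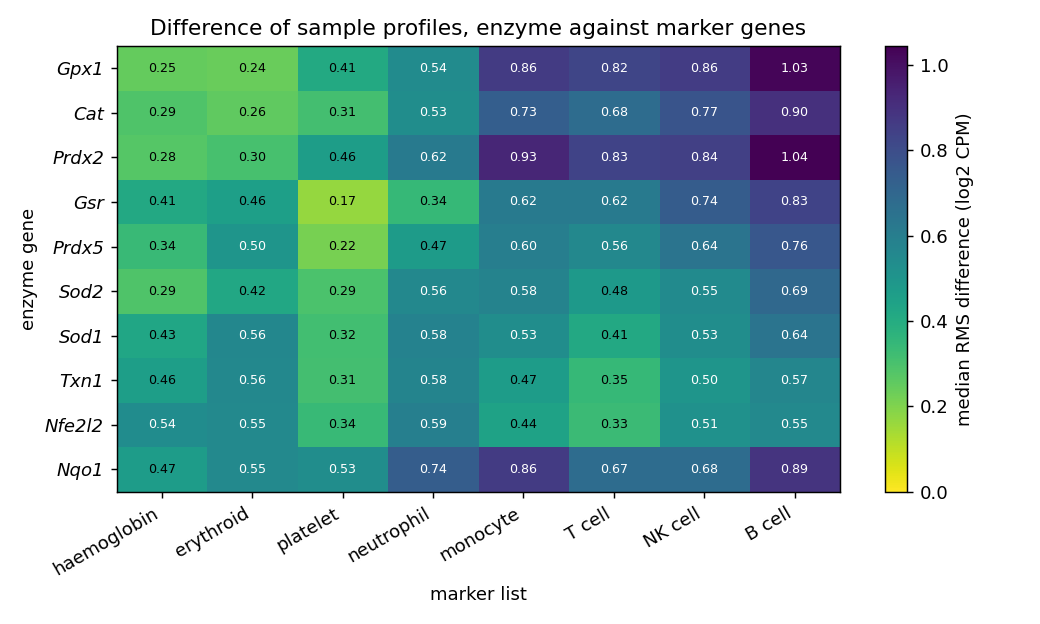
Median RMS difference of centred log2 CPM over the 8 samples (colour and number in each cell, lower is more alike) between each member (rows) and the genes of 8 marker lists (columns). Gpx1, Cat and Prdx2 have their lowest values at the erythroid and haemoglobin lists, and Gsr at the platelet list with 0.166.

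Among members the closest profiles were Sod1 and Txn1 (RMS difference 0.154), Prdx2 and Gpx1 (0.177), and Txn1 and Nfe2l2 (0.189), and the farthest were Prdx2 and Nfe2l2 (0.625). The tested genes nearest to each member were Hagh and Snx15 for Gpx1 (0.0676 and 0.0728), Ncoa4 and Pabpc1 for Cat (0.0615 and 0.0862), and Vangl1 and Slc25a39 for Prdx2 (0.142 and 0.146). Ndrg1 and Tyrobp came nearest to Gsr (0.0957 and 0.0987), and Eif4ebp1 and S100a10 to Prdx5 (0.0763 and 0.0859). For the other members the nearest were Psenen and B2m (Sod1), Cetn2 and Metap2 (Sod2), Cd7 and Spcs1 (Txn1), Nprl3 and Rilpl2 (Nfe2l2), and Ttc23 and Ceacam10 (Nqo1), the last pair only at 0.275 and 0.281.

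Markers of the expected blood cells were present, and of all 8 lists only 1 haemoglobin gene in the table had no count. Several of these lists moved between the groups beside the members. On the TMM scale 16 of 16 platelet genes rose, among them the chemokine Ppbp and the integrin Itga2b, and their summed level went from 1945 to 2926 CPM in the control samples to 4495 to 5096 CPM in the stress samples. Of the neutrophil genes 16 of 19 rose, including the calcium-binding protein S100a9, with sums of 210 to 414 against 663 to 975 CPM, and of the monocyte genes 8 of 15, including lysozyme Lyz2, with sums of 665 to 789 against 996 to 1592 CPM. Of 12 B cell genes 7 fell and 0 rose, with sums of 1124 to 1385 against 764 to 1000 CPM, of 14 T cell genes 0 passed, and of 10 NK cell genes 1 fell and 0 rose. With total counts as the scale, the median log2 fold change of the lists was 0.23 for platelet, 0.74 for neutrophil, 0.53 for monocyte, −1.31 for B cell, −0.91 for T cell and −1.03 for NK cell genes.

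The erythroid list had a median log2 fold change of 0.95, but only 3 of 28 genes rose and the sums overlapped, at 15530 to 43680 against 34584 to 70883 CPM. Of the haemoglobin genes 1 of 5 rose, with a median of 1.06. Hbb-bs, Hba-a1 and Hbb-bt were the haemoglobin genes above 5% of a library. The log2 fold changes of Gpx1 (1.01), Gsr (1.01), Prdx5 (0.92), Prdx2 (0.90) and Cat (0.88) lay near the erythroid median, the haemoglobin median and the platelet median of 0.99 alike. The part of cell composition in the members' differences was not tested.

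The rest of the antioxidant system was described from a list of 60 other genes, of which 53 were tested. The other 7 (Sod3, Gpx7, Gpx8, Gsta4, Me1, Mt1 and Mt2) had at most 18 counts in any sample. On the TMM scale 20 of 53 rose and 0 fell (edgeR), with a median log2 fold change of 0.42, beside the 10.4% of all tested genes that rose. The count was 10 without control 2 and 12 without control 3. In these fits 618 and 692 of all tested genes rose, against 1223 with all samples. The lowest log2 fold changes were those of the sestrins Sesn3 (−0.55, adjusted p = 0.146) and Sesn1 (−0.42, 0.0726). Neither passed the adjusted rule, with an unadjusted p of 0.0427 and 0.0132 (edgeR). The third sestrin, Sesn2, was among the 20 that rose (0.60, adjusted p = 0.0258), and its call held in 4 of 8 fits that left out a sample. DESeq2 and limma-voom also called 0 lower. On total counts 0 of 53 were higher by the adjusted rule (1 at an unadjusted p below 0.05) and 12 were lower, where 49.6% of all tested genes were lower. On erythroid marker counts 0 were higher (0 at an unadjusted p below 0.05) and 9 lower, where 39.7% of all tested genes were lower.

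Of the 4 other genes with the smallest p in the upward direction, Hmox1, the haem oxygenase, came first, at 2.38 ± 0.271 CPM for controls and 5.39 ± 0.682 CPM after stress (SD, n = 4 each). Its log2 fold change was 1.18 ± 0.17 (SE, edgeR, adjusted p = 0.00107), and with Mgst1 it was 1 of 2 genes of the list past the study's thresholds. Msrb1, a methionine sulfoxide reductase, rose by 0.94 (adjusted p = 0.00206), Pgd, an NADPH-forming enzyme of the pentose phosphate pathway, by 0.71 (0.00242), and Prdx6, a peroxiredoxin, by 0.87 (0.00337). On total counts these 4 were no longer called, and Pgd lay at −0.05.

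Some of the genes that serve the same step as a member also rose on the TMM scale, and others did not pass. Gpx4, the peroxidase of membrane lipids, changed by 0.89 on the log2 scale (edgeR, adjusted p = 0.00498), Prdx1 by 0.44 (0.0163) and the mitochondrial Prdx3 by 0.45 (0.0422). Srxn1, which restores overoxidised peroxiredoxins, rose by 0.75 (0.00521). G6pdx, the first enzyme of the pentose phosphate pathway, rose by 0.36 (0.0265), and Gclm, a subunit of the enzyme that starts glutathione synthesis, by 1.03 (0.0425). Slc7a11, the cystine transporter, rose by 1.56 (0.0226) from 1.17 ± 0.759 CPM (SD, n = 4). On the NRF2 step the partner Mafg rose by 0.59 (0.0158). Of these calls, that of Prdx3 held in 1 of 8 fits that left out a sample, that of Gclm in 3 and that of Slc7a11 in 4, and Prdx3 missed the threshold with limma-voom (adjusted p = 0.0569). The following genes of the same steps were picked after their values were seen. Txnrd1, the reductase of thioredoxin, lay at −0.02 (edgeR, adjusted p = 0.937), Gclc, the catalytic partner of Gclm, at 0.20 (0.191) and Prdx4 at 0.19 (0.573). Keap1, the inhibitor of NRF2, lay at −0.14 (0.421) and Mafk at −0.07 (0.726). The lowest values of the list, after those of Sesn3 and Sesn1, were −0.30 for Mgst2 (adjusted p = 0.271) and −0.15 for Nfe2l1 (0.311), neither past the threshold. On total counts none of the genes in this group was called higher. Txnrd1 (−0.83), Keap1 (−0.94), Mafk (−0.88), Mgst2 (−1.07) and Nfe2l1 (−0.92) were called lower there, as were Sesn1 and Sesn3. Gclc (−0.59) and Prdx4 (−0.58) were not called. On that scale 49.6% of all tested genes were called lower.

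**Figure D5:**
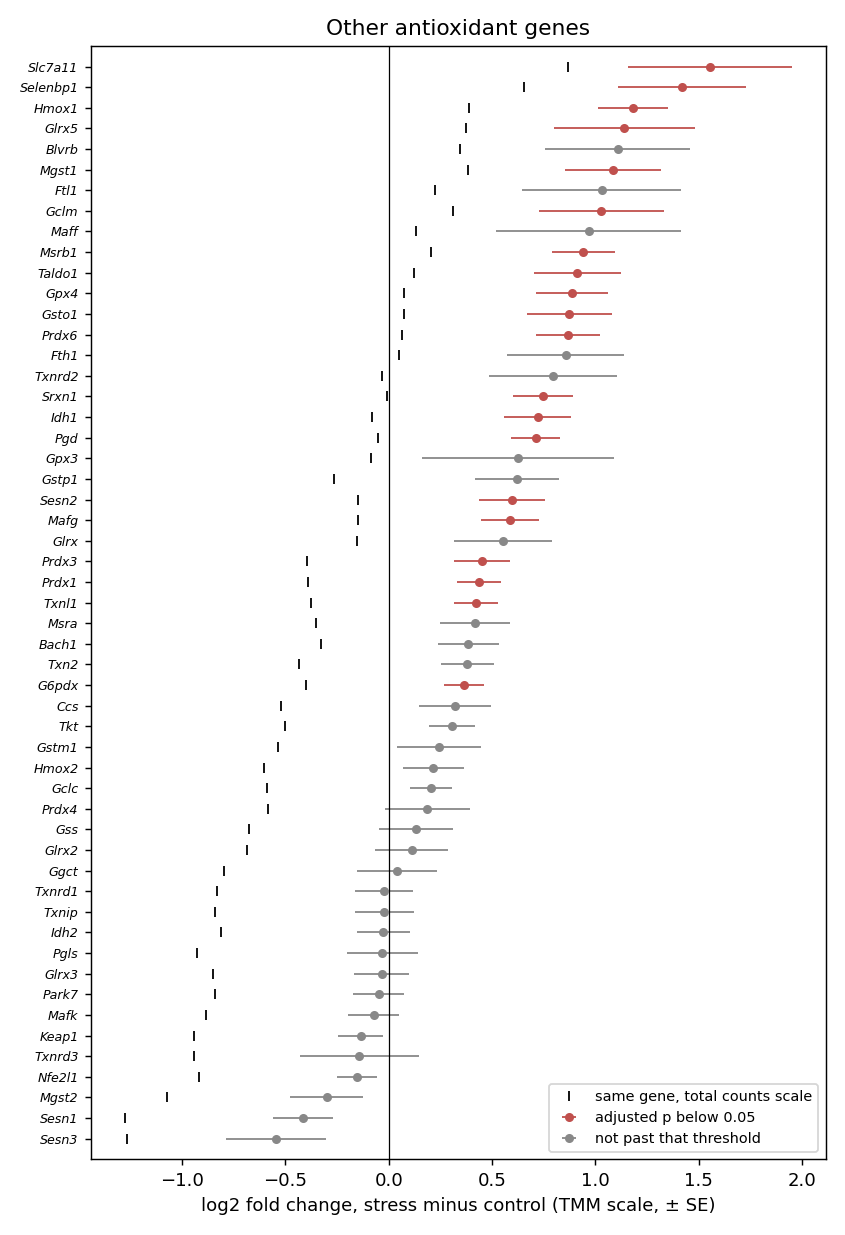
Log2 fold change, stress minus control (horizontal axis, TMM scale, ± SE), of the 53 other antioxidant genes tested, with the 20 past an adjusted p of 0.05 in red and the same gene on total counts as a black tick. On total counts every tick lies to the left of its point, and none of the 53 was called higher.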

How the data were processed

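Whole blood RNA of 4 control and 4 stress samples was sequenced after TruSeq library preparation. The authors deposited raw counts per gene symbol, with no normalization. HISAT2, featureCounts and the build mm10 are named in the submitters' processing notes; their versions, the annotation, the strand setting and the treatment of multi-mapped reads are not given in the sources used here. Without strand, reads of opposite overlapping genes cannot be told apart, and reads of near-identical copies may be split.

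A gene was tested where 4 or more samples had 10 or more counts (11718 of 21878 symbols, of which 5948 had no count). Models were fitted in edgeR 4.0.16 (R 4.3.3), with TMM factors (1.01 to 1.77 in control, 0.507 to 1.10 in stress samples), the robust quasi-likelihood test over all 8 samples and Benjamini-Hochberg adjustment over all tested genes; SE is the log2 fold change over the square root of F. The fit was tested on counts simulated from its own means, dispersions and TMM library sizes, which cannot test the choice of library scale. Ratios and shares used two-sided exact permutation tests over 70 assignments, whose smallest p is 0.0286. Libraries of 1 group differed by more than sampling noise. Control 3 and stress 3 lay at the ends of the haemoglobin share, and results without each sample are given.

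Positions, exon lengths and overlaps come from GENCODE M21 on GRCm38, and promoters from RefSeq. Members, gene lists and tests were chosen with earlier results of these data known. Named genes were all members, up to 4 other antioxidant genes per direction with the smallest p, those past the threshold at a member's own step, the 2 genes most like each member, the haemoglobin genes above 5% of a library and up to 2 abundant genes of a marker list. Junb, Rnaseh2a and Trmt112 were added because they overlap members, Mgst1, Sesn2 and the genes not tested to complete small counts, and Txnrd1, Gclc, Prdx4, Keap1 and Mafk after their values were seen. The alternatives were DESeq2 1.42.0, limma-voom (limma 3.58.1), other factors and filters, 3 other library scales, a replicate block, and fits that left out a sample. Protein sequence, serum, flow cytometry and lung data were not analysed here.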

Additional observations from a re-analysis of the deposited data

Results flagged for a closer look

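In 2 of 54 sets of 4 values that were screened with Dixon's test, a single sample lay far from the other 3. Chance gives about 5% of such sets. Prdx5 reached 52.9 CPM in stress 3, while the other stress samples lay between 33.3 and 34.9 CPM; on total counts stress 3 was not the highest, at 26.8 CPM with stress 4 at 36.6 CPM. Sod1 was lowest at 18.1 CPM in control 2, with the other control samples between 21.8 and 22.3 CPM; on total counts control 3 was highest at 38.7 CPM and control 2 lay at 26.6 CPM.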

How the results depend on the processing

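The number of members called higher was 7 with DESeq2, limma-voom and RLE factors, and 6 with upper quartile factors, without the haemoglobin genes, and with no or a stricter count filter. It was 0 on total counts and 0 on erythroid marker counts. Of all tested genes 1223 were higher in the main fit, 1580 with DESeq2, 1356 with limma-voom and 1251 with RLE factors. With upper quartile factors 1149 were higher, without the haemoglobin genes 1210, with no count filter 1131 of 15930 and with the stricter filter 1172 of 10367. Members past the study's thresholds numbered 0 on total counts, 0 outside haemoglobin and 0 on erythroid marker counts. Leaving out each sample in turn gave 2 to 9 members higher (2 without control 2, 3 without control 3, 9 without control 4) and 0 to 2 past the study's thresholds. The mean member share was higher after stress by 0.362 percentage points of the counts outside haemoglobin, against 0.0456 of all counts. The groups overlapped in both (two-sided exact permutation test, p = 0.0857 and 0.314). Sign changes on total counts were those of Sod1 (−0.23), Sod2 (−0.18), Txn1 (−0.31), Nfe2l2 (−0.34) and Nqo1 (−0.31). On erythroid marker counts they were those of Prdx5 (−0.073), Cat (−0.0023), Sod1 (−0.42), Sod2 (−0.32), Txn1 (−0.48), Nfe2l2 (−0.53) and Nqo1 (−0.35). The cause of these shifts was not tested.

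Of the other antioxidant genes, 0 were higher and 12 lower on total counts, 12 and 7 outside haemoglobin, and 0 and 9 on erythroid marker counts. Past the study's thresholds 5 were up with DESeq2, 4 with limma-voom, 0 on total counts (2 down), 1 outside haemoglobin and 0 on erythroid marker counts. Leaving out a sample gave 10 to 24 higher (10 without control 2, 12 without control 3), 0 to 1 lower and 1 to 7 up past the study's thresholds.

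Of all tested genes 52 were higher and 5811 lower on total counts, 551 and 3946 outside haemoglobin, and 15 and 4652 on erythroid marker counts, with 659 lower by DESeq2. Past the study's thresholds 329 were up and 14 down by DESeq2, 14 and 729 on total counts, 57 and 136 outside haemoglobin, and 2 up on erythroid marker counts; 4 were down with upper quartile factors and 4 with no count filter. Leaving out a sample gave 618 (without control 2) to 1421 higher, 77 to 717 lower, 76 to 338 up and 1 to 8 down.

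No pairing by replicate number was seen, though so few correlations cannot exclude it. Deviations of same-numbered samples correlated between −0.16 and 0.0621, and only number 1 correlated best with its own number. The paper describes the controls as littermates, and whether the numbers follow litters is not stated. With a replicate block 5 members and 14 other antioxidant genes were higher, and of all tested genes 920 were higher, 240 were lower and 1 was down past the study's thresholds. Cat was the member no longer called (adjusted p = 0.0634), and Gsr stayed past the study's thresholds (0.0016).

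With 4 samples per group, and 13 to 47 counts for Nqo1, small differences were not detectable.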
